A study of Mus musculus with 20 samples.

Results

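The mitochondrial ribosomal protein genes are the nuclear genes whose symbols begin with Mrpl or Mrps followed by a number, with pseudogenes left out. By this rule 77 of the 25851 genes in the deposited expression table were members, 48 with an Mrpl and 29 with an Mrps symbol, and all 77 were protein coding, on 17 chromosomes. The mitochondrial ribosome translates the few proteins that mitochondrial DNA encodes, which are core subunits of the respiratory chain and ATP synthase. Its RNAs come from mitochondrial DNA, while its proteins are made in the cytosol and imported, so that assembly needs both genomes. The heart is among the tissues richest in mitochondria, and PGC-1α, a transcriptional coactivator, is known to promote the expression of mitochondrial genes.

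Each of 4 groups held 5 hearts, all from male mice 14 to 16 weeks old. The groups were labelled knockout mice (PGC-1α deleted in cardiomyocytes) after 6 weeks of voluntary wheel running, wild-type mice after the same training, sedentary labelled knockout mice, and sedentary wild-type mice. The deletion concerns cardiomyocytes, other heart cells keep the gene, and the Cre line behind it is not given in the sources used here. Each library came from poly-A RNA of a 15 to 20 mg piece of heart, and each mouse is 1 replicate.

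Several properties of the libraries bear on what follows. The libraries held 14.2 to 30.4 M recovered reads, and every member had at least 147 reads in every library. Ppargc1a, the targeted gene, read 18.7 to 26.9 FPKM in trained labelled knockout and 10.4 to 21.9 FPKM in trained wild-type hearts. In sedentary hearts it read 18.2 to 27.9 FPKM in labelled knockout and 9.39 to 15.4 FPKM in wild type (permutation p = 0.00794, two-sided and exact, which is the lowest possible over 252 splits). A higher total over the whole gene goes against the label, and since the deleted part is not given, the value checks neither its presence nor its absence. All 8 cardiomyocyte markers were above 0 in every library. In 4 trained libraries (labelled knockout 2 and 5, wild type 4 and 5) the atrial gene Myl7 was above 1000 FPKM, and in 5 sedentary libraries (wild type 1 to 4, labelled knockout 1) the clock gene Arntl was above 2 FPKM.

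Promoters of 5 members are shown because the members moved together and because these windows carry the 4 motifs that were searched. They cover the 250 bases before and 50 bases after a start listed for the gene in RefSeq (GRCm38.p6). Bases run 5′ to 3′ on the strand of the gene, with the motif in capitals. For Mrpl51 and Mrpl39 the window lies inside the GENCODE gene model. Mrpl42, a protein of the large subunit that bacteria lack, holds AAGATGGC, a motif of the factor YY1 (chr10:95501900-95502199, minus strand). Mrpl51, also specific to mitochondria, holds CCGGAAG, the ETS motif that GABP binds (chr6:125191950-125192249, plus strand). Mrpl12, the stalk protein that recruits elongation factors, holds AAGGTCA, the motif of the estrogen-related receptors, on the other strand (chr11:120484387-120484686, plus strand). Mrpl39 holds the motif of nuclear respiratory factor 1, searched as GCGCA followed by its own reverse complement (chr16:84735195-84735494, minus strand). Mrps18b, the member that differed least between the trained groups, holds the ETS motif on the other strand (chr17:35916391-35916690, minus strand).
Mrpl42: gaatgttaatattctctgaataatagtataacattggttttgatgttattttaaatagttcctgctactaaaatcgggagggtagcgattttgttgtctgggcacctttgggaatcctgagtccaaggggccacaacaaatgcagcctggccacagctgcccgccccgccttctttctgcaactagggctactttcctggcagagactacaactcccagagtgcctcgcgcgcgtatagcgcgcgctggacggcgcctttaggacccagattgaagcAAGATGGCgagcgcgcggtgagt
Mrpl51: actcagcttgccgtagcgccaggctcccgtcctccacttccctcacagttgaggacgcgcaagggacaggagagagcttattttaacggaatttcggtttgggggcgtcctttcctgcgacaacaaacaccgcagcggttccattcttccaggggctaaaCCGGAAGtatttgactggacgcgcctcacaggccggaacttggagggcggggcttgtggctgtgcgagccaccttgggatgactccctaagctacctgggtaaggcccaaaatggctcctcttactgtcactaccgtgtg
Mrpl12: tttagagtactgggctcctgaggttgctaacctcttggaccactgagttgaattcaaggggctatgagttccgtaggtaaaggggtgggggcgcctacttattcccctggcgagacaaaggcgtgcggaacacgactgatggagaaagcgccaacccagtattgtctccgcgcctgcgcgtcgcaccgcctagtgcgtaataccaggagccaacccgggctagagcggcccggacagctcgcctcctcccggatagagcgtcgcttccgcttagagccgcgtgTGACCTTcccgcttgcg
Mrpl39: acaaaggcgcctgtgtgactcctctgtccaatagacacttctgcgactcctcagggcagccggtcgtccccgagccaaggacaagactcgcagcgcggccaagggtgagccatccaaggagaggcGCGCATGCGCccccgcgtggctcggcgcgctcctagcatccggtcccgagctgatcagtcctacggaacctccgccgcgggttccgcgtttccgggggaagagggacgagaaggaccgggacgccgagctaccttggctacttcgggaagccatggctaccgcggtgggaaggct
Mrps18b: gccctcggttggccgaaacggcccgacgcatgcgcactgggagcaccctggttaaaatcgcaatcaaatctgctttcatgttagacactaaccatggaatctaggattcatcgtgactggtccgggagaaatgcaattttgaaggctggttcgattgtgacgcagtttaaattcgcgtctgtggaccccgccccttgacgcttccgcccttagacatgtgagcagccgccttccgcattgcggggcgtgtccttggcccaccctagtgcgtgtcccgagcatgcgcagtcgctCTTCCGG

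Of the 77 members 68 had a promoter in the RefSeq table, and these members had 74 promoters. Motifs were searched on both strands as exact letters, and in 0 member promoters did letters of different motifs share bases. The ETS motif was in 33.8% of the member promoters, against 8.86% of all 32851 mouse promoters and 16.8% of the promoters of genes tested here. It was in 11.8% of those of nuclear complex I subunits and 35.8% of those of cytosolic ribosomal proteins. The YY1 motif was in 16.2% of the member promoters, 2.75% of all promoters and 4.29% of the promoters of genes tested. It was in 20.6% of those of nuclear complex I subunits and 11.9% of those of cytosolic ribosomal proteins. The nuclear respiratory factor 1 motif was in 3 member promoters (4.05%), against 0.971% of all promoters, 1.97% of those of genes tested, 2.94% of complex I and 2.99% of cytosolic ribosomal promoters. The estrogen-related receptor motif was in 4 (5.41%), against 4.72% of all promoters, 3.27% of those of genes tested, 8.82% of complex I and 7.46% of cytosolic ribosomal promoters. The median log2 fold change between the trained genotypes was −0.40 for the 25 members with the ETS motif and −0.52 for the 43 without it. For the 12 members with the YY1 motif it was −0.51, and for the 56 without it −0.42. With the estrogen-related receptor motif the median was −0.59 (4 members), and −0.42 for the 64 without it. With the nuclear respiratory factor 1 motif the median was −0.26 (3 members), and −0.43 for the 65 without it. A match describes these letters in this window and is not a bound site.

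Summed over all 77 genes, mitochondrial ribosomal protein mRNA was at 1372, 1405, 1389, 1341 and 1433 FPKM in trained labelled knockout hearts and at 1989, 2224, 2222, 1992 and 1851 FPKM in trained wild-type hearts. The sum was 1907, 1961, 2153, 1971 and 1936 FPKM in sedentary labelled knockout hearts and 2074, 2100, 1926, 2227 and 2265 FPKM in sedentary wild-type hearts. All 5 trained labelled knockout hearts lay below every other heart, and the other 3 groups overlapped. FPKM are fragments per kilobase of exon, scaled to sequencing depth, so levels can be set side by side between genes. The large subunit (50 members) summed to 967 ± 22.9 FPKM in trained labelled knockout and 1436 ± 123 FPKM in trained wild-type hearts (SD, n = 5 each). The small subunit (26 members) summed to 398 ± 12.1 and 584 ± 39.4 FPKM in the same groups. The ratio of the large to the small subunit sum averaged 2.43, 2.46, 2.50 and 2.51 in trained labelled knockout, trained wild-type, sedentary labelled knockout and sedentary wild-type hearts, so both subunits stood in nearly the same proportion in each group.

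**Figure D1:**
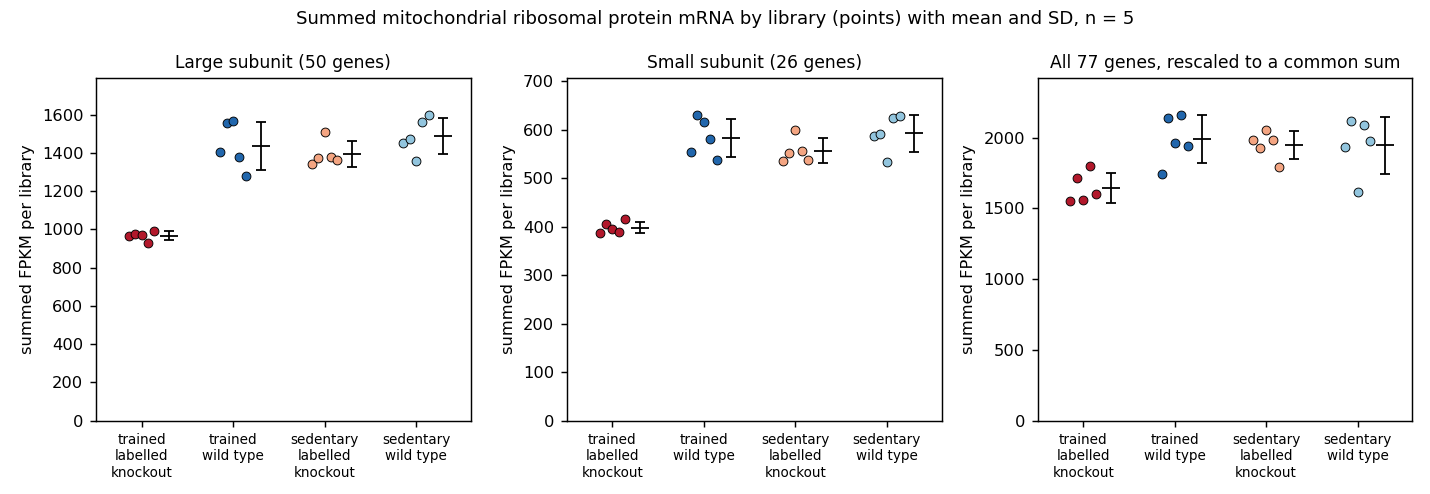
Summed FPKM of the large subunit (left), the small subunit (middle) and all 77 members after rescaling every library to a common FPKM sum (right), by group. Points are libraries, with mean and SD beside them (n = 5); as deposited the trained labelled knockout hearts lie below all others, at 931 to 993 FPKM for the large subunit, while after rescaling they overlap the other groups.

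The deposited values are scaled between libraries, and their sums over all genes differed, at 331876 to 398369 FPKM in trained labelled knockout and 410641 to 507887 FPKM in trained wild-type hearts. Rescaled to a common sum, as in TPM, the members came to 1553 to 1798 in trained labelled knockout and 1743 to 2158 in trained wild-type hearts, which overlap. Transcripts of the mitochondrial genome held 31.3 ± 4.17% of the FPKM in trained labelled knockout, 34.8 ± 3.29% in trained wild-type, 35.3 ± 2.08% in sedentary labelled knockout and 40.4 ± 2.93% in sedentary wild-type hearts (SD, n = 5 each).

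Among themselves the members spanned a mean of 2.75 FPKM for Mrps10, of the small subunit head, to 100.4 FPKM for Mrpl34, with a median of 17.4 FPKM. After Mrpl34 the highest were Mrps21 (82.2 FPKM), Mrpl28 (80.2 FPKM), Mrps23 (76.1 FPKM) and Mrpl2 (61.8 FPKM), and after Mrps10 the lowest were Mrps30, Mrpl32, Mrps25 and Mrps22 (3.74 to 4.11 FPKM). Mice of the same group differed little: the coefficient of variation within groups had a median of 7.82% over members, was lowest for Mrpl16 (4.67%) and highest for Mrps6 (23.9%). Within groups the members varied together. The correlation of a member with the mean of the others, over 20 libraries after removal of the group means, had a median of 0.65, exceeded 0.5 in 50 members and was highest for Mrpl2 (0.91). It was below 0 in 5 members, Mrpl19, Mrps2, Mrps6, Mrpl50 and Mrpl35. These points share libraries and their depth, and the correlation is a description.

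**Figure D2:**
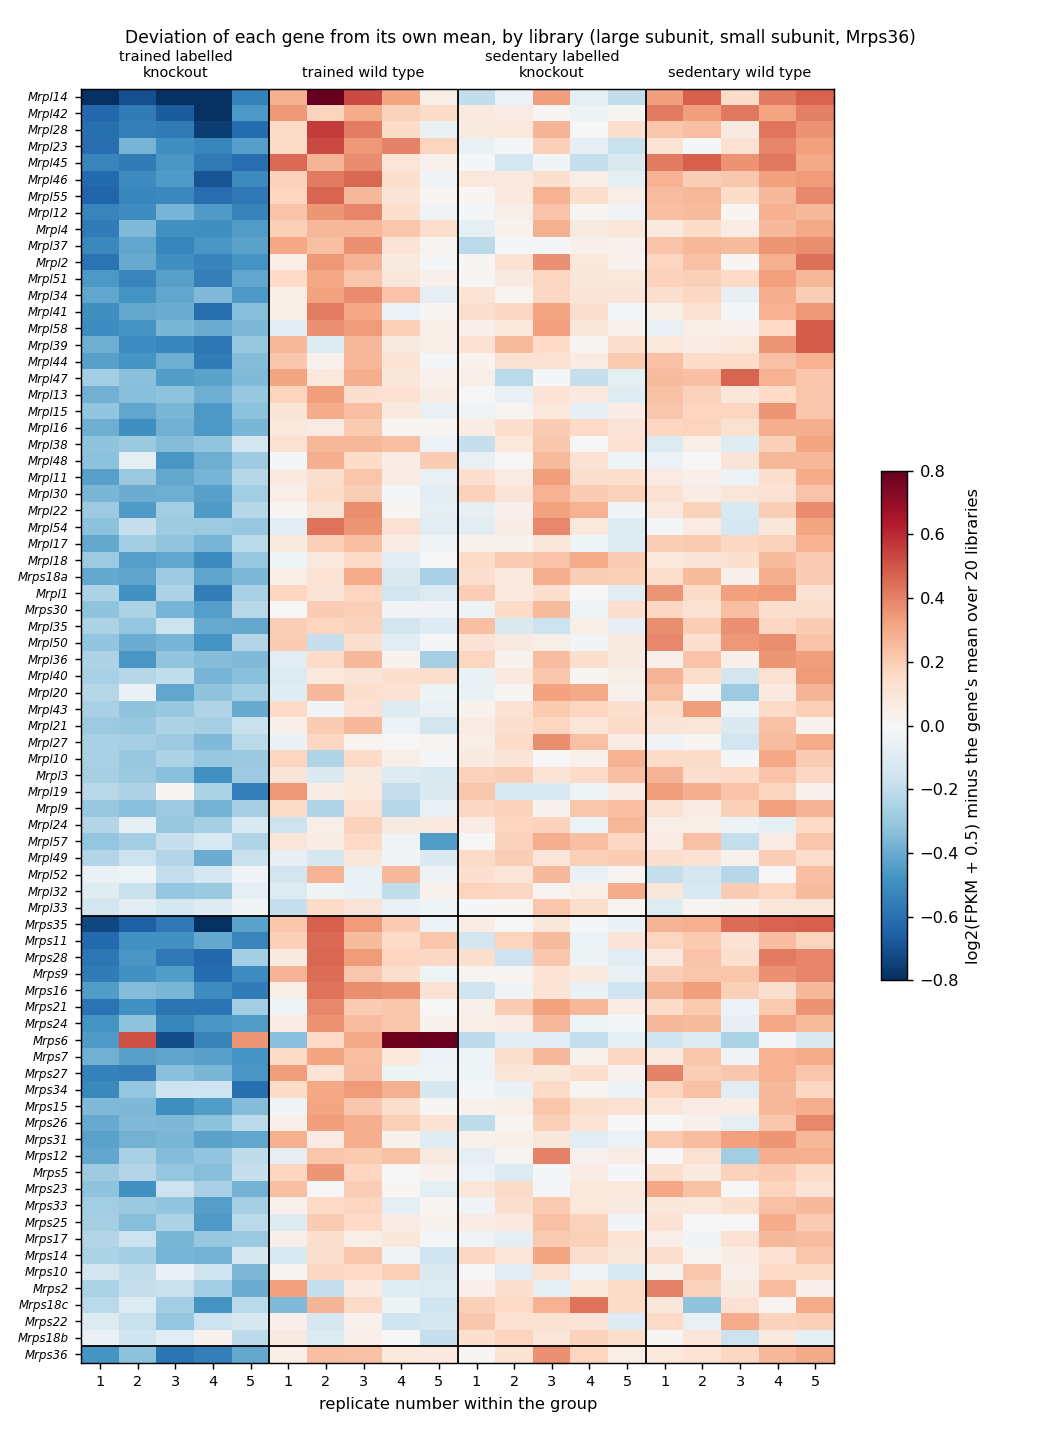
Each row is 1 gene (50 of the large subunit, 26 of the small subunit, then Mrps36), each column 1 library by group and replicate number, and colour is log2(FPKM + 0.5) minus the mean of the gene over 20 libraries (colours end at ±0.8). In each of the 5 trained labelled knockout libraries 76 or 77 of the 77 genes lie below their own mean, while Mrps6 is high in labelled knockout 2 and 5 and wild type 4 and 5 of the trained hearts.

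Between the trained groups, nearly the whole set was lower in labelled knockout hearts. Of 77 members 68 fell and none rose (limma on log2(FPKM + 0.5), Benjamini-Hochberg adjusted p below 0.05 over all genes). Of the 13723 genes tested 15.4% fell and 12.5% rose. The median log2 fold change was −0.44 over the members and −0.01 over all genes tested, and every member had a negative value. In FPKM the mean of a member was 4.67 to 55.5% lower in labelled knockout than in wild-type hearts, with a median of 27.7%. For 62 members the 5 labelled knockout hearts did not overlap the 5 wild-type hearts, against 11.1% of all genes tested. None rose at an unadjusted p below 0.05 either, where 17.5% of all genes did, and none rose in limma-voom on the recovered reads.

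With every library rescaled to a common FPKM sum 33 members fell (5.71% of all genes tested), and with a common sum taken without mitochondrial genome transcripts 43 fell (7.14%), at medians of −0.16 and −0.23. With the common FPKM sum 787 of all genes tested fell and 5149 rose, where 2112 fell and 1713 rose in the deposited values. Those scalings moved the median of all genes tested to 0.24 and 0.18. Relative to that median the members stood at −0.40 and −0.41, and at −0.44 in the deposited values. Each scaling is a factor per library that shifts all genes nearly alike, so this distance could hardly change and is no check of the fall.

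Mrpl14, a conserved protein of the large subunit face that meets the small subunit (chr17:45686322-45698495), had the largest difference. It measured 28.8, 31.0, 28.2, 29.2 and 34.7 FPKM in trained labelled knockout hearts, 61.9, 90.3, 73.3, 63.2 and 52.5 FPKM in trained wild-type hearts, 44.2, 49.2, 64.0, 48.3 and 44.2 FPKM in sedentary labelled knockout hearts, and 64.0, 70.9, 56.2, 67.7 and 70.5 FPKM in sedentary wild-type hearts. The trained labelled knockout hearts were below all others, and the sedentary groups overlapped through 1 labelled knockout heart. Its log2 fold change between trained genotypes was −1.14 ± 0.12 (SE), adjusted p = 1.2e-06 by limma. Of its exon bases 11.2% overlap Tmem63b on the opposite strand.

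Mrpl42 (chr10:95480805-95501940), whose promoter is shown above, had the lowest adjusted p. It measured 27.5, 28.9, 26.7, 23.5 and 31.0 FPKM in trained labelled knockout hearts, 54.5, 48.3, 52.5, 48.7 and 47.3 FPKM in trained wild-type hearts, 45.0, 44.7, 42.9, 41.5 and 42.9 FPKM in sedentary labelled knockout hearts, and 57.0, 54.0, 57.3, 53.2 and 56.5 FPKM in sedentary wild-type hearts. Trained labelled knockout hearts were lowest, sedentary labelled knockout hearts came next without overlap, and the wild-type groups were highest and overlapped each other. The log2 fold change between trained genotypes was −0.86 ± 0.06 (SE, limma adjusted p = 2.5e-08).

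In the deposited values the genes of proteins at the factor site and the exit tunnel were lower as well. Mrpl12, the stalk protein shown above that meets elongation factors, measured 41.3, 42.3, 46.2, 43.6 and 41.2 FPKM in trained labelled knockout hearts, 70.0, 76.6, 78.7, 65.7 and 58.6 FPKM in trained wild-type hearts, 59.6, 61.9, 70.1, 60.3 and 58.7 FPKM in sedentary labelled knockout hearts, and 70.7, 71.3, 60.4, 72.9 and 71.8 FPKM in sedentary wild-type hearts. All trained labelled knockout hearts were below all others, with a log2 fold change of −0.69 ± 0.08 (SE) against trained wild type. Mrpl10 and Mrpl11, which hold the stalk base, changed by −0.30 and −0.44 on the log2 scale. Mrpl23, at the rim of the exit tunnel, averaged 7.23 ± 0.471 FPKM in labelled knockout and 13.1 ± 1.46 FPKM in wild-type trained hearts (SD, n = 5), a log2 fold change of −0.81. Its neighbour Mrpl24 changed by −0.24, and by 0.04 with a common FPKM sum, where it did not pass the test. Mrpl45, which anchors the tunnel exit to the inner membrane (chr11:97315716-97329920), measured 14.1, 13.8, 14.8, 13.7 and 13.3 FPKM in trained labelled knockout hearts and 28.3, 24.9, 26.8, 22.0 and 21.1 FPKM in trained wild-type hearts, which did not overlap. Its log2 fold change was −0.79 ± 0.07 (SE).

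Near the peptidyl transferase centre, where peptide bonds form, Mrpl3 and Mrpl27 changed by −0.30 and −0.31. Mrpl16, in the same region, averaged 37.2 ± 1.43 FPKM in labelled knockout and 52.8 ± 3.02 FPKM in wild-type trained hearts (SD, n = 5), a log2 fold change of −0.50. Mrpl58, the peptidyl-tRNA hydrolase also called Ict1, changed by −0.59, and Mrpl44, a protein with a ribonuclease III fold, by −0.56. Mrpl34, the most abundant member (chr8:71464959-71465747), measured 74.0, 70.6, 74.0, 77.2 and 71.6 FPKM in trained labelled knockout hearts and 103, 124, 128, 116 and 93.3 FPKM in trained wild-type hearts. The groups did not overlap, and its log2 fold change was −0.60 ± 0.08 (SE). Among other large subunit members, Mrpl28 changed by −0.86, Mrpl46 by −0.79, Mrpl4, which lines the tunnel, by −0.68, Mrpl37 by −0.68, Mrpl51 by −0.64 and Mrpl41 by −0.60, all with limma adjusted p below 0.05. The large subunit thus had 45 of 50 members lower, with a median of −0.43.

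In the small subunit 22 of 26 members were lower, with a median of −0.52. Mrps35 (chr6:147042764-147073991), specific to mitochondria, averaged 4.31 ± 0.533 FPKM in labelled knockout and 8.41 ± 1.17 FPKM in wild-type trained hearts (SD, n = 5), a log2 fold change of −0.89 ± 0.09 (SE). Mrps11, of the platform, changed by −0.76, Mrps16 by −0.71, Mrps31 by −0.52 and Mrps12, a protein of the decoding centre, by −0.44. By origin as in the unified protein names, 41 of 46 members named after a bacterial homolog and 26 of 30 named as mitochondrial were lower. The medians were −0.44 and −0.45. Mrps18a and Mrps18b count as mitochondrial by these names, although they share the S18 family with Mrps18c, counted as bacterial.

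Symbols and places in the ribosome do not always match. Mrps30 and Mrps18a carry small subunit names but sit in the large subunit in mammalian structures, and they changed by −0.39 and −0.40. Mrps36 is a subunit of the 2-oxoglutarate dehydrogenase complex and not of the ribosome. It measured 23.1, 25.6, 21.3, 21.9 and 24.1 FPKM in trained labelled knockout hearts, 33.4, 38.2, 38.0, 34.1 and 34.1 FPKM in trained wild-type hearts, 32.5, 34.9, 41.7, 36.4 and 33.5 FPKM in sedentary labelled knockout hearts, and 34.1, 34.7, 36.1, 38.9 and 39.9 FPKM in sedentary wild-type hearts. Trained labelled knockout hearts were below all others and the other groups overlapped, with a log2 fold change of −0.61 ± 0.07 (SE) between trained genotypes.

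Between trained genotypes 9 members did not pass the test, namely Mrps6, Mrpl19, Mrps18c, Mrpl57, Mrpl52, Mrpl32, Mrps22, Mrpl33 and Mrps18b. Mrps18b measured 7.47, 6.89, 7.25, 7.92 and 6.66 FPKM in trained labelled knockout hearts, 8.20, 7.16, 8.07, 7.78 and 6.76 FPKM in trained wild-type hearts, 8.53, 8.86, 8.32, 8.88 and 8.61 FPKM in sedentary labelled knockout hearts, and 7.80, 8.34, 6.84, 8.20 and 7.33 FPKM in sedentary wild-type hearts. The trained genotypes overlapped (log2 fold change −0.06 ± 0.07, SE), and the value was 0.21 with a common FPKM sum. Its paralog Mrps18c, also of the small subunit, had −0.23 ± 0.12 (SE), and 0.04 with a common FPKM sum. Within the S18 family the large subunit member Mrps18a thus passed the test and the others did not. Of the exon bases of Mrps18b 30.5% lie opposite Gm16279, and Mrps18c shares 23.2% with Gm43511 on the same strand, so both values are less certain.

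Mrps6, a protein of the small subunit platform (chr16:92058270-92112227), measured 8.06, 16.1, 6.67, 7.57 and 14.4 FPKM in trained labelled knockout hearts, 8.76, 12.6, 13.9, 19.7 and 27.1 FPKM in trained wild-type hearts, 9.64, 10.5, 10.5, 9.75 and 10.6 FPKM in sedentary labelled knockout hearts, and 9.97, 10.3, 9.33, 11.1 and 10.3 FPKM in sedentary wild-type hearts. Its 4 highest libraries were the 4 with Myl7 above 1000 FPKM. The gene shares 10.4% of its exon bases with Slc5a3 and 19.9% with Gm49711 on the same strand. Between trained genotypes its log2 fold change was −0.60 ± 0.24 (SE, limma adjusted p = 0.075).

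**Figure D3:**
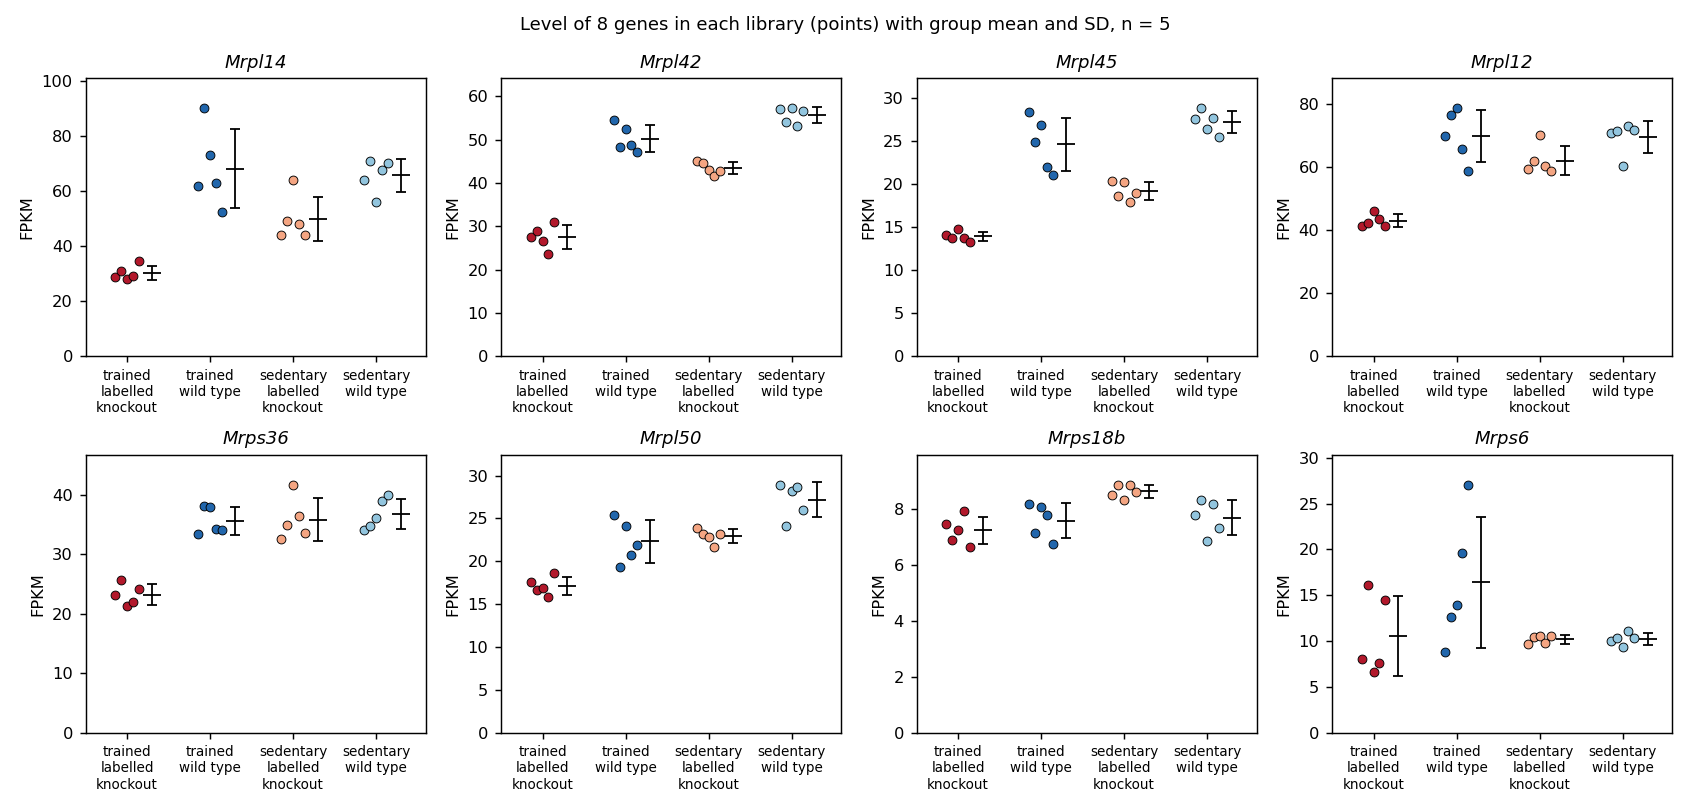
FPKM of 8 genes by group, with points for libraries and bars for mean and SD (n = 5). In Mrpl14, Mrpl42, Mrpl45, Mrpl12, Mrps36 and Mrpl50 the 5 trained labelled knockout hearts lie below all 15 others, in Mrps18b they overlap the trained wild-type hearts, and Mrps6 spreads from 6.67 to 27.1 FPKM among trained hearts.

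**Figure D4:**
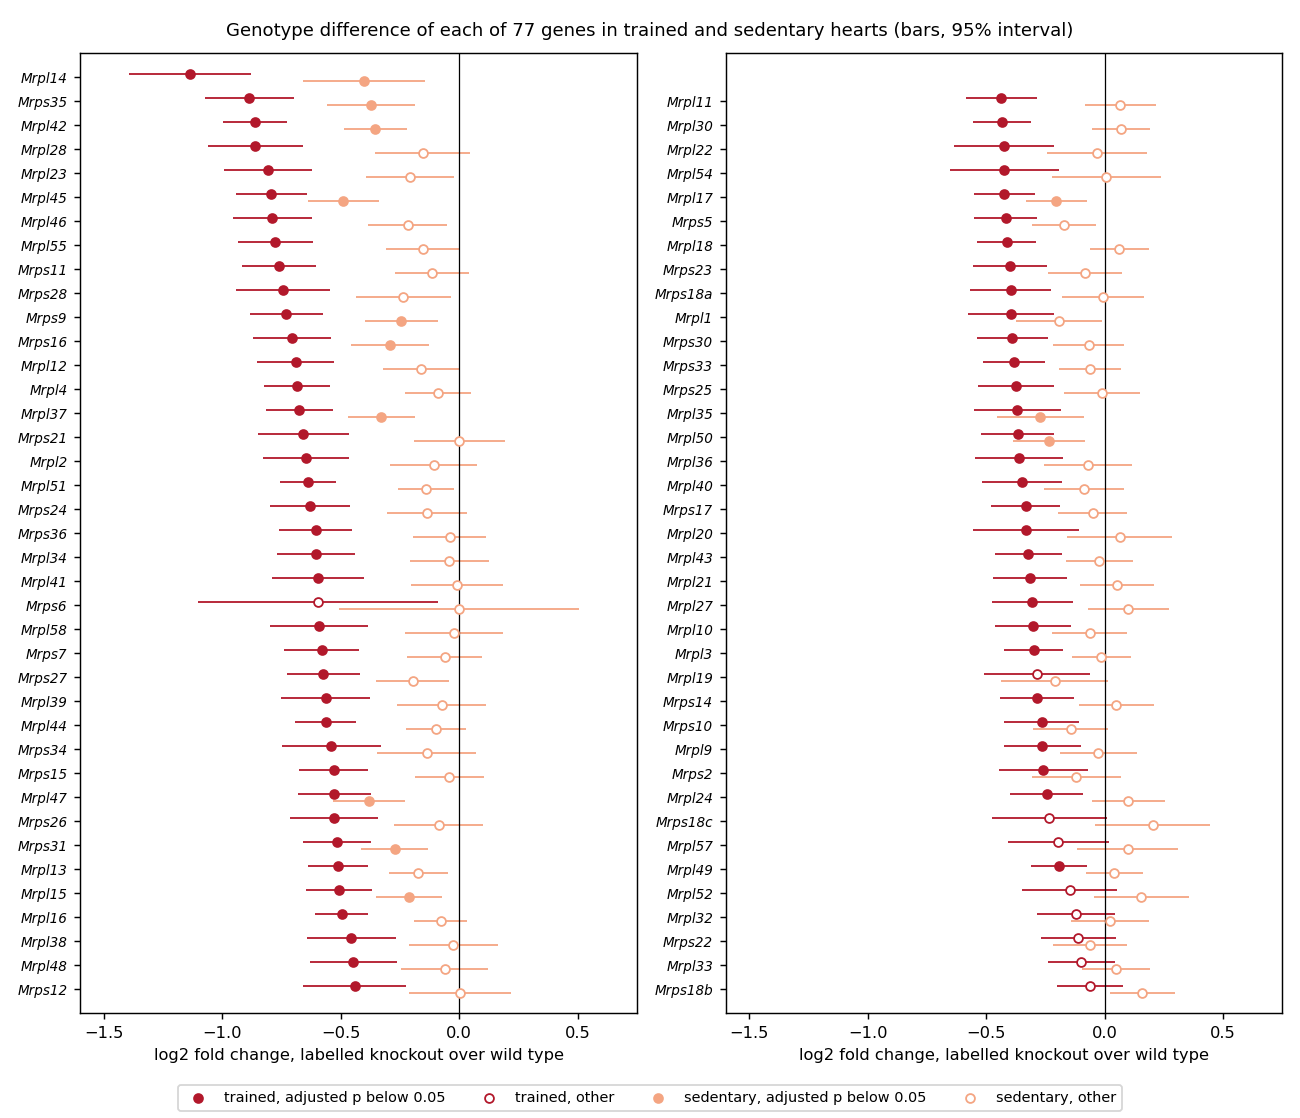
Log2 fold change of labelled knockout over wild type for each of the 77 genes in trained (dark) and sedentary (light) hearts, with 95% intervals, ordered by the trained value; filled points have an adjusted p below 0.05. The trained values run from −1.14 to −0.06 and the sedentary ones from −0.49 to 0.20.

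Training in labelled knockout mice went with lower values in nearly the whole set. Of 77 members 72 fell in trained against sedentary labelled knockout hearts and none rose, at an adjusted or an unadjusted p (limma) or in limma-voom, where 16.3% of all genes tested fell and 12.1% rose in limma. The median log2 fold change was −0.44 over the members and −0.02 over all genes, all 77 values were negative, and 72 members did not overlap between the groups, against 13.7% of all genes. The trained labelled knockout hearts are the same 5 libraries as in the comparison of trained genotypes. Mrpl28 changed by −0.73, Mrpl14 by −0.70, Mrps21 by −0.68, Mrpl55 by −0.68, Mrps35 by −0.66, Mrpl42 by −0.65, Mrpl18 by −0.61, Mrps36 by −0.61, Mrpl51 by −0.56, Mrps18a by −0.56, Mrpl16 by −0.55, Mrpl44 by −0.55, Mrpl12 by −0.53, Mrpl34 by −0.52 and Mrpl3 by −0.51, with SEs of 0.05 to 0.12. Mrps18b, with −0.24 ± 0.07 (SE), and Mrps18c, with −0.50 ± 0.12 (SE), passed the test here.

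The 5 that did not were Mrpl19 (−0.25), Mrpl33 (−0.18), Mrpl52 (−0.18), Mrps10 (−0.16) and Mrps6 (−0.04). With a common FPKM sum 27 members fell (4.58% of all genes tested) at a median of −0.18, the median of all genes being 0.21. Of all genes 631 then fell and 4085 rose, against 2236 and 1656 in the deposited values, and a common sum without mitochondrial genome transcripts gave 48 members lower (6.67% of all genes). With the common FPKM sum Mrps18b, Mrps10, Mrpl33, Mrpl52 and Mrps6 had positive values that did not pass the test.

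In wild-type mice 2 of 77 members (2.60%) were lower with training, a share near that of all genes tested. Mrpl50 and Mrpl3 fell in trained against sedentary hearts and none of the 77 rose (limma, adjusted p), while 2.53% of all genes tested fell and 2.94% rose. In 1 member, Mrpl3, the trained hearts lay below the sedentary ones without overlap, against 1.68% of all genes. At an unadjusted p below 0.05, 12 members were lower and 1 was higher, where 14.4% of all genes tested were lower and 12.5% higher, so the members' share lower was near that of all genes. Limma-voom called 0 members higher. The median was −0.06 over the members and −0.01 over all genes, and it was 0.02 over the members with a common FPKM sum. Mrpl50, a large subunit protein specific to mitochondria (chr4:49512596-49521093), measured 25.4, 19.3, 24.1, 20.8 and 21.9 FPKM in trained wild-type hearts and 29.0, 24.1, 28.2, 28.7 and 25.9 FPKM in sedentary wild-type hearts. The groups overlapped, with a log2 fold change of −0.28 ± 0.07 (SE, limma adjusted p = 0.035). Mrpl3, near the peptidyl transferase centre, averaged 16.3 ± 1.29 FPKM in trained and 19.1 ± 0.787 FPKM in sedentary wild-type hearts (SD, n = 5), a log2 fold change of −0.23 ± 0.06 (SE). Neither fell with a common FPKM sum, where 0.392% of all genes tested did. Neither fell without the Myl7-high libraries, without the Arntl-high libraries or with wild-type libraries fitted alone, but in those fits only 6, 3 and 9 of the 13723 genes fell at all. A common sum without mitochondrial genome transcripts gave 3 members lower (2.48% of all genes). Mrps6 had the value furthest from 0, 0.56 ± 0.24 (SE, limma adjusted p = 0.15), and 0.17 without the Myl7-high libraries. Leaving out 1 library gave 0 to 6 members lower, 6 without trained wild type 1 (9.18% of all genes), 4 without trained wild type 3 (2.85%), and 1 without sedentary wild type 2 (1.2%) or 4 (2.75%). It gave 0 without sedentary wild type 1 or 3 or trained wild type 2, 4 or 5, where 33 to 90 of all genes fell.

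In sedentary mice a smaller set was lower in labelled knockout hearts. There 13 of 77 members fell and none rose (limma), 9 of the large and 4 of the small subunit, while 6.32% of all genes tested fell and 6.96% rose. At an unadjusted p below 0.05, 21 members were lower and 1 was higher, where 2065 of all genes tested were lower (15.0%) and 2001 higher (14.6%). Limma-voom called 0 members higher. The median was −0.07 over the members and −0.01 over all genes, and it was 0.02 over the members with a common FPKM sum. For 14 members the groups did not overlap, against 5.29% of all genes. Mrpl45 led, at 20.4, 18.6, 20.2, 17.9 and 19.0 FPKM in sedentary labelled knockout and 27.5, 28.8, 26.5, 27.6 and 25.4 FPKM in sedentary wild-type hearts. The groups did not overlap, and its log2 fold change was −0.49 ± 0.07 (SE, limma adjusted p = 0.00022). Mrpl14 changed by −0.40, Mrpl47 by −0.38, Mrps35 by −0.37, Mrpl42 by −0.35, Mrpl37 by −0.33, Mrps16 by −0.29 and Mrps31 by −0.27, and Mrps9, Mrpl17, Mrpl50, Mrpl15 and Mrpl35 also fell.

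Arntl was above 2 FPKM in 4 of 5 wild-type and 1 of 5 labelled knockout sedentary hearts. Without those 5 libraries, which leaves 1 wild-type heart assumed to vary like the other groups, 0 members fell, at a median of −0.16, and only 9 of the 13723 genes tested fell. With log2 Arntl as a covariate 3 members and 2.35% of all genes fell. With a common FPKM sum 4 fell (2.84% of all genes tested), and 9 fell without mitochondrial genome transcripts in the sum (4.86%). Leaving out 1 library gave 6 to 15, with 4.02 to 10.5% of all genes lower. It gave 6 to 8 without labelled knockout 2, 4 or 5 or wild type 1 or 2, with 4.02 to 4.72% of all genes lower.

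The training change differed between genotypes for 40 members, all more negative in labelled knockout than in wild-type mice (interaction in limma, adjusted p below 0.05), against 5.0% of all genes tested in that direction and 2.32% in the other. None was more positive, at an adjusted or an unadjusted p (10.9% of all genes were, unadjusted) or in limma-voom. The median difference was −0.39 over the members, all 77 values being negative, and −0.01 over all genes, and 26 of 50 large and 13 of 26 small subunit members were called. Mrpl14 had −0.73, Mrpl28 −0.71, Mrps21 −0.66, Mrps11 −0.64, Mrpl55 −0.62, Mrpl4 −0.59, Mrps36 −0.57, Mrpl12 −0.53, Mrpl42 −0.51 and Mrpl51 −0.50 (log2 differences of differences). With a common FPKM sum 0 members passed the test (0.421% of all genes did), at a median of −0.21 with that of all genes at 0.15. A common sum without mitochondrial genome transcripts gave 4 (0.48%). The fit without Arntl-high libraries gave 0 members and also 0 of the 13723 genes in that direction. With log2 Arntl as a covariate 21 members (1.34% of all genes) passed the test, and without sedentary labelled knockout 3 it was 26 (2.5%).

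Genes of other steps of mitochondrial translation were also lower in trained labelled knockout against trained wild-type hearts. Of all genes tested 15.4% fell and 12.5% rose there. All 5 genes of ribosomal proteins without an Mrpl or Mrps symbol fell. For the small subunit the log2 fold change was −0.53 in Dap3, −0.62 in Aurkaip1, −0.47 in Chchd1 and −0.40 in Ptcd3. For Gadd45gip1 of the large subunit it was −0.63. Of 15 translation factors and related genes tested (Oxa1l, Letm1 and Lrpprc among them) 12 fell, with a median of −0.39. The elongation factor Tufm averaged 64.0 ± 3.22 FPKM in labelled knockout and 111 ± 12.4 FPKM in wild-type trained hearts (SD, n = 5), a log2 fold change of −0.78 ± 0.08 (SE). Its exchange factor Tsfm changed by −0.56, and Oxa1l, which inserts the new chains into the inner membrane, by −0.39. Of 28 assembly and ribosomal RNA modification genes 16 fell, at a median of −0.27, among them the ribosome binding factor Rbfa (−0.68) and the RNA chaperone Eral1 (−0.44). Of 20 mitochondrial aminoacyl-tRNA synthetases and amidotransferase subunits 13 fell, at a median of −0.38, with the phenylalanyl-tRNA synthetase Fars2 at −0.91. No gene of these lists rose in this comparison.

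The products and the partners of the ribosome were set beside it. Between trained genotypes 15.4% of all genes tested fell and 12.5% rose. Of the 13 protein-coding transcripts of the mitochondrial genome 6 fell between trained genotypes, at a median of −0.52, among them mt-Nd4 (−0.56) and mt-Cytb (−0.52). Poly-A selection bears on how such transcripts are captured, and its part was not tested. All 36 genes of nuclear complex I subunits fell, at a median of −0.81. Their sum was 3419 to 4140 FPKM in labelled knockout and 5819 to 8021 FPKM in wild-type trained hearts. Of the cytosolic ribosomal protein genes 4 of 78 fell and 2 rose, at a median of −0.05. In the sedentary comparison 22 of 78 rose and 0 fell, at a median of 0.26, where 6.96% of all genes rose and 6.32% fell. These lists are given in the deposited values alone. A common FPKM sum moved the median of all genes tested to 0.24 between trained and 0.073 between sedentary genotypes, so medians near 0 depend on the scaling. Of 15 coactivators and nuclear regulators of mitochondrial genes 4 fell and 2 rose, with the receptor Esrra at 48.6 ± 1.59 FPKM in labelled knockout and 87.7 ± 3.47 FPKM in wild-type trained hearts (SD, n = 5), a log2 fold change of −0.85.

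**Figure D5:**
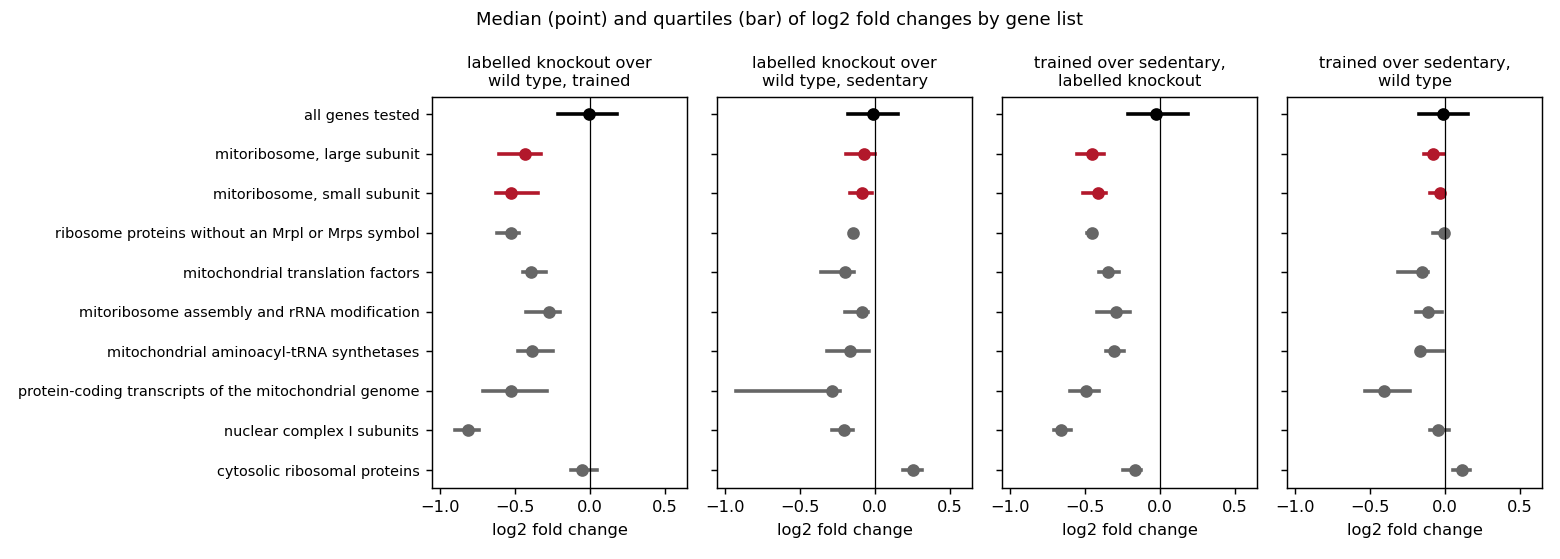
Median (point) and quartiles (bar) of log2 fold changes in 4 comparisons, for all genes tested, both mitochondrial ribosomal subunits (red) and other lists. In the comparison of trained genotypes the subunits stand at −0.43 and −0.52, complex I at −0.81 and cytosolic ribosomal proteins at −0.05.

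Markers of some cell types moved with the same groups. They are given in deposited FPKM, whose sum over all genes was lowest in trained labelled knockout hearts. Between trained genotypes 15.4% of all genes tested fell and 12.5% rose. In whole tissue, fewer cells of a type and less RNA per cell cannot be told apart. Summed over 8 cardiomyocyte markers the level was 15387 to 17772 FPKM in trained labelled knockout and 19587 to 24984 FPKM in trained wild-type hearts, 6 of the 8 fell, and their median log2 fold change was −0.48. All 5 macrophage markers rose, with a sum of 209 to 382 FPKM in labelled knockout and 99.8 to 181 FPKM in wild-type trained hearts. Fibroblast markers rose in 4 of 5 genes, and endothelial markers fell in 3 of 5. Markers also moved with training in labelled knockout mice, where 16.3% of all genes tested fell and 12.1% rose. Cardiomyocyte markers summed to 15387 to 17772 FPKM in trained and 22354 to 26106 FPKM in sedentary labelled knockout hearts, with 7 of 8 lower. Macrophage markers summed to 209 to 382 FPKM in trained and 148 to 167 FPKM in sedentary labelled knockout hearts, with 5 of 5 higher. Fibroblast markers summed to 220.5 to 329 FPKM in trained and 125 to 156 FPKM in sedentary ones, with 3 of 5 higher. Endothelial markers summed to 118 to 150.5 FPKM in trained and 117 to 154 FPKM in sedentary ones, with 0 of 5 called. Adipocyte markers were highest in trained labelled knockout 2 (294 FPKM) and trained wild type 4 and 5 (171 and 89.5 FPKM). In sedentary hearts they summed to 9.23 to 12.8 FPKM in labelled knockout and 14.6 to 22.6 FPKM in wild type. Epicardial and mesothelial markers summed to 3.82 to 22.8 FPKM in trained labelled knockout and 2.48 to 49.6 FPKM in trained wild-type hearts. The part of these differences in the fall of the ribosomal genes was not tested. Without the 4 Myl7-high libraries the median of the members between trained genotypes was −0.54.

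For 16 members other genes cover at least 10% of the exon bases, on the same strand in 4 (Mrps6, Mrps24, Mrps34 and Mrps18c) and on the opposite strand in 13, with Mrps34 counted in both. The libraries were made with a kit that marks strand, and the strand setting of the counting is not given in the sources used here. Values of members such as Mrps25, with 69.8% of its exon bases opposite Nr2c2, are less certain for that reason.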

How the data were processed

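Heart RNA of 20 mice was sequenced as poly-A libraries made with a directional kit, per the labels' protocols. The authors deposited 1 table of FPKM values for 25851 genes. HISAT2 2.0.5, featureCounts 1.5.0-p3, DESeq2 1.20.0 and mm10 are listed in the submitters' processing notes, without the role of each. FPKM times the exon length of GENCODE gene models (GRCm38) gave whole reads within 0.01 in every library for 24958 genes (96.5%), and the effective library sizes followed median-ratio size factors (ratio 0.997 to 1.00), so no further scaling was applied.

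The test covered 13723 genes at a mean of 0.5 FPKM or more, all 77 members among them, and left 12128 out. Limma 3.58.1 (R 4.3.3) took log2(FPKM + 0.5) in a single model of 4 groups, leaving 16 residual degrees of freedom, with trended eBayes, two-sided tests, Benjamini-Hochberg adjustment over all genes and a threshold of 0.05. Fold changes are understated for low genes. The interaction subtracts the wild-type training change from the labelled knockout one. P-values set a difference of groups against the spread between mice within groups, moderated over genes. Other steps used pandas 2.3.3, numpy 2.4.6 and scipy 1.17.1 under Python 3.11.15, and the scripts were tested on simulated data. Replicates differed by far more than sampling noise (lowest chi-square per gene 8.36).

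The members and lists were chosen with earlier results of these data known. Named members were those called (up to 20 per comparison by p), the 5 highest and lowest in level and in variation, those with a listed role, and up to 10 per comparison whose groups did not overlap; from other lists up to 4 called genes per comparison. Members listed as not passing, Ptcd3, Esrra and the members correlated below 0 were chosen after their values were seen. Alternatives were other pseudocounts (0.1, 1) and filters, a common FPKM sum (TPM), each comparison's groups alone, a replicate block, libraries left out singly or for high Myl7 or Arntl, log2 Arntl as a covariate, and limma-voom on recovered reads (72 members, since Mrpl11, Mrpl16, Mrpl28, Mrpl43 and Mrpl49 gave no whole reads). A common sum without mitochondrial genome transcripts was chosen after seeing the data. Mrpl53 was not analysed here.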

Additional observations from a re-analysis of the deposited data

Results flagged for a closer look

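Of 40 groups of 5 libraries examined for 1 library standing apart (Dixon's ratio above 0.71), 4 were set apart, and chance alone gives about 1 in 20. Sedentary labelled knockout 3 had the highest summed level of its group, 2153 FPKM, where the others had 1907 to 1971 FPKM. The same library was high in Mrpl12, at 70.1 FPKM, and in Mrpl14, at 64.0 FPKM. Sedentary wild type 3 was low in Mrpl12, at 60.4 FPKM, where the others of its group had 70.7 to 72.9 FPKM.

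The change with training differed between labelled knockout and wild-type mice in 40 members by the interaction test in limma (adjusted p below 0.05). Among those named, the log2 difference was −0.73 for Mrpl14, −0.71 for Mrpl28, −0.66 for Mrps21, −0.64 for Mrps11, −0.62 for Mrpl55 and −0.59 for Mrpl4. It was −0.50 for Mrpl51, −0.51 for Mrpl42, −0.53 for Mrpl12 and −0.57 for Mrps36. With a common FPKM sum 0 members passed this test, where 0.421% of all genes did.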

How the results depend on the processing

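With a common FPKM sum (TPM) the members lower numbered 4 (genotype, sedentary), 0 (training, wild type), 27 (training, labelled knockout), 33 (genotype, trained) and 0 (interaction), at medians of 0.023, 0.016, −0.18, −0.16 and −0.21. Of all genes tested 2.84, 0.392, 4.58, 5.71 and 0.421% were lower with that sum, in the same order. A common sum without mitochondrial genome transcripts gave 43 lower between trained genotypes (7.14% of all genes) and 4 in the interaction (0.48%). Its medians were −0.26 for training in labelled knockout, −0.23 between trained genotypes and −0.17 for the interaction. Without the Arntl-high libraries 0 were lower in sedentary genotypes, wild-type training and the interaction, at medians of −0.16, −0.16 and −0.31, while 9, 3 and 0 of all 13723 genes were lower in these fits, and with log2 Arntl as a covariate 3, 0 and 21 were lower (2.35, 0.211 and 1.34% of all genes). Without the Myl7-high libraries wild-type training gave 0 (0.0437% of all genes). The medians in that fit were −0.54 between trained genotypes and −0.47 for the interaction. Wild-type training gave 1 without the filter on low values (0.565% of all genes) and 0 with its groups alone (0.0656%). The other values of these summaries stayed within 1.5 times, or within the spread of the libraries, under the other alternatives. The cause was not tested.

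Leaving out 1 library at a time gave 6 to 15 members lower in sedentary genotypes (median −0.11 to −0.04), 0 to 6 lower and 0 to 1 higher for wild-type training (−0.08 to −0.03), 71 to 73 for training in labelled knockout, 64 to 70 between trained genotypes, and 26 to 47 in the interaction (−0.42 to −0.35). All genes lower then ran 4.02 to 10.5, 0.24 to 9.18, 13.6 to 16.9, 12.9 to 15.8 and 2.5 to 7.92%, in that order. The 1 member higher came without trained wild type 1, where 7.66% of all genes rose. The replicate block gave 13, 2, 74, 70 and 40 lower, with 9.15, 6.27, 17.5, 16.7 and 6.19% of all genes lower. Same-numbered libraries correlated by −0.28 to 0.48. Numbers 1 (0.25 to 0.36) and 5 (0.079 to 0.48) were positive in every pair of groups, and numbers 2 to 4 had both signs. Whether the numbers pair the mice cannot be told from these values. Limma-voom gave 12, 2, 67, 63 and 31 of 72, with 5.94, 1.93, 16.6, 15.6 and 4.16% of all genes lower.

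With a common FPKM sum the sign turned in training of labelled knockout mice for Mrps18b (0.014), Mrps10 (0.067), Mrpl33 (0.073), Mrpl52 (0.085) and Mrps6 (0.22), and between trained genotypes for Mrpl24 (0.040), Mrps18b (0.21) and Mrps18c (0.043). Without mitochondrial genome transcripts it turned for Mrpl52 (0.0007) and Mrps6 (0.14) in training of labelled knockout mice and for Mrps18b (0.14) between trained genotypes. Mrps6 in training of labelled knockout mice also turned, to 0.035, 0.099 and 0.056, without trained labelled knockout 1, 3 or 4, in a range of −0.20 to 0.099 over the libraries left out. Of the 908 values of named members under alternatives other than leaving out 1 library 808 kept direction and call. This total is uneven by setting. Either pseudocount kept 77 of 77. With a common FPKM sum only 42 of 77 were kept, while 27 lost the call and 8 turned in sign. Without mitochondrial genome transcripts in the sum 58 of 77 were kept. Of 1540 values under leaving out 1 library 1504 kept both.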
